A study of Homo sapiens with 12 samples.

Results

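Ribosome biogenesis and RNA polymerase I genes were followed through an mRNA-seq experiment in HCC1806, a cell line of triple-negative breast cancer (TNBC). The list holds 54 gene symbols that code for RNA polymerase I subunits and start factors, abundant nucleolar proteins, small nucleolar ribonucleoprotein (snoRNP) proteins and assembly factors of both ribosomal subunits. All 54 were matched by Ensembl identifier to the 17013 genes of the table. A non-targeting siRNA (siNT) or a pool of 4 siRNAs against the kinase MLK4 (siMLK4) was transfected. On the following day 1 μM doxorubicin was given for 24 h, or vehicle. This gave 4 groups of 3 libraries, which are called siNT vehicle, siNT doxorubicin, siMLK4 vehicle and siMLK4 doxorubicin below. The vehicle libraries are labelled DMSO and time 0, so drug and harvest time cannot be told apart if those cells were collected earlier. The labels do not say whether the 3 libraries of a group came from separate cultures on separate days, and p-values measure the spread between these libraries.

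Ribosome production starts in the nucleolus, where RNA polymerase I copies the ribosomal DNA into one long precursor RNA. The precursor is folded, chemically modified under the guidance of small nucleolar RNAs, cut, and packed with ribosomal proteins into a small and a large subunit by a long series of assembly factors. The pathway is among the largest consumers of energy in a growing cell, its genes are a classical target group of the transcription factor MYC, and cancer cells often run it at a high rate. Doxorubicin is an anthracycline that intercalates into DNA, poisons topoisomerase II and is known to block ribosomal RNA synthesis. The libraries were made from polyadenylated RNA, so the messages of the factors were measured and the ribosomal RNA itself was not. In bulk libraries, fewer cells that express a gene and less RNA per cell cannot be told apart.

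Each library held between 16759025 and 19302248 reads assigned to genes. Levels are given as normalized reads, that is, reads divided by the size factor of the library. Log2 fold changes and their standard errors (SE) come from limma on the variance-stabilized log2 values of the table, with p-values adjusted over all 17013 genes. Calls needed an adjusted p below 0.01 together with an absolute log2 fold change above 0.75, and counts at an adjusted p under 0.05 alone are given as well. "Fell" and "rose" are used for genes past at least the second rule.

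The siRNA labels were checked on the target first. MAP3K21, the gene of the kinase MLK4 (ENSG00000143674, GRCh38 chr1:233327724-233385148, + strand), had 553.1, 669.6 and 673.6 normalized reads in siNT vehicle and 103.2, 94.66 and 88.65 in siMLK4 vehicle. With doxorubicin it had 757.6, 856.1 and 771.6 normalized reads in siNT cells and 112.8, 138.4 and 94.35 in siMLK4 cells. The siMLK4 libraries thus kept 15.1% and 14.5% of the siNT level, and the groups did not overlap. Markers of breast epithelium were present, with EPCAM between 7534 and 17069 normalized reads and KRT5 between 5954 and 33618. Of 11 markers of other cell types, 7 were not in the table. The other 4 were PTPRC, VWF and PDGFRB, each under 70 normalized reads in every library, and COL1A1, at 254.5 to 577.3. COL1A1 was called higher with siMLK4 in vehicle (0.78) and rose with siMLK4 under doxorubicin (0.51). PTPRC rose with doxorubicin in siNT cells (0.59) and was called higher in siMLK4 cells (0.84), at no more than 21.23 normalized reads, and PDGFRB fell with doxorubicin in both (−0.58 and −0.72). Of the 9 genes listed as basal markers, which include EPCAM, 5, KRT5 among them, were called lower with doxorubicin in each siRNA group, against 10.6% of all genes. TP63 and KRT6A had the lowest log2 fold changes of the basal markers in siNT cells (−1.60 and −1.36) and KRT17 and EPCAM the highest (−0.01 and −0.04). With siMLK4 the basal markers KRT6A (−1.19 in vehicle and −1.03 with doxorubicin) and KRT14 (−1.05 and −1.26) were called lower in both treatments and KRT17 (−0.82) with doxorubicin. KRT17 also fell in vehicle (−0.66) and EPCAM in both treatments (−0.62 and −0.63), whereas KRT5 rose in vehicle (0.64). Of 8 luminal and receptor markers, KRT19 (−1.68) and KRT18 (−1.18) were lowest with doxorubicin in siNT cells, both called, and GATA3 and PGR were highest. GATA3 rose by 0.57, and PGR had no read in the vehicle libraries and between 7.258 and 18.46 normalized reads with doxorubicin. With siMLK4 in vehicle GATA3 (0.74) and ERBB2 (0.37) rose and KRT18 fell (−0.58), and with siMLK4 under doxorubicin KRT8 (−0.66) and KRT18 (−0.69) fell. The part of these shifts in the results below was not tested.

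The 4 siRNAs of the pool are shown because a siRNA can also lower other messages that pair with the seed of its guide strand, and a shared seed match among the 54 genes would bear on the siMLK4 comparisons. The sense strands are written from 5′ to 3′. Capitals mark bases 12 to 18, which pair with bases 2 to 8 of the guide, the seed.
siRNA 1: ggaaagaugcuCAGAGAGauu
siRNA 2: aggagaagcccAAGGUAAauu
siRNA 3: agaagaaacgaGAGGGAAuuu
siRNA 4: agaacagauugCAAAGAAauu

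The first 19 bases of each siRNA matched MAP3K21. At least 1 of the 4 seed words stood in the annotated 3′UTRs of 27 of the 54 genes (50%), against 7910 of 13585 genes with an annotated 3′UTR (58.2%). The 3′UTRs of the 54 genes were shorter, with a median longest 3′UTR of 871 bases against 1813 over all genes.

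Some libraries stood apart from others of their own group. Relative to the mean of all libraries, values depended on log2 exonic length with a slope of −0.086, 0.019 and 0.095 in siNT vehicle and 0.105, 0.027 and −0.109 in siMLK4 vehicle. It stayed between −0.066 and 0.048 in the 6 doxorubicin libraries. The vehicle groups were thus the less uniform ones in this slope, and its part in the results was not tested beyond a fit with the slope as a covariate. Mitochondrial genes took 1.744, 2.889 and 3.665% of reads in siNT vehicle, 2.618 to 3.569% in siNT doxorubicin, 2.598 to 3.246% in siMLK4 vehicle and 3.844, 4.56 and 4.745% in siMLK4 doxorubicin. The siMLK4 doxorubicin libraries, which also had the lowest levels of the 54 genes, were thus the highest in this share, and its part in the results was not tested.

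The summed level of the 54 genes differed between the groups. They took 1.09, 1.05 and 0.958% of all reads in siNT vehicle and 0.893, 0.943 and 0.911% in siNT doxorubicin. They took 0.721, 0.834 and 0.725% in siMLK4 vehicle and 0.674, 0.674 and 0.686% in siMLK4 doxorubicin. The 4 groups did not overlap in this share, siNT vehicle being the highest and siMLK4 doxorubicin the lowest. Taken gene by gene, the median difference from the siNT vehicle mean on the log2 scale was 0.134, 0.014 and −0.122 in the siNT vehicle libraries themselves, −0.453, −0.416 and −0.391 in siNT doxorubicin, and −0.594, −0.374 and −0.654 in siMLK4 vehicle. In siMLK4 doxorubicin it reached −0.874, −0.916 and −0.828. The heat map of all genes in all libraries shows that most rows became paler or bluer in each of the 3 other groups, while a few rows did the opposite.

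**Figure D1:**
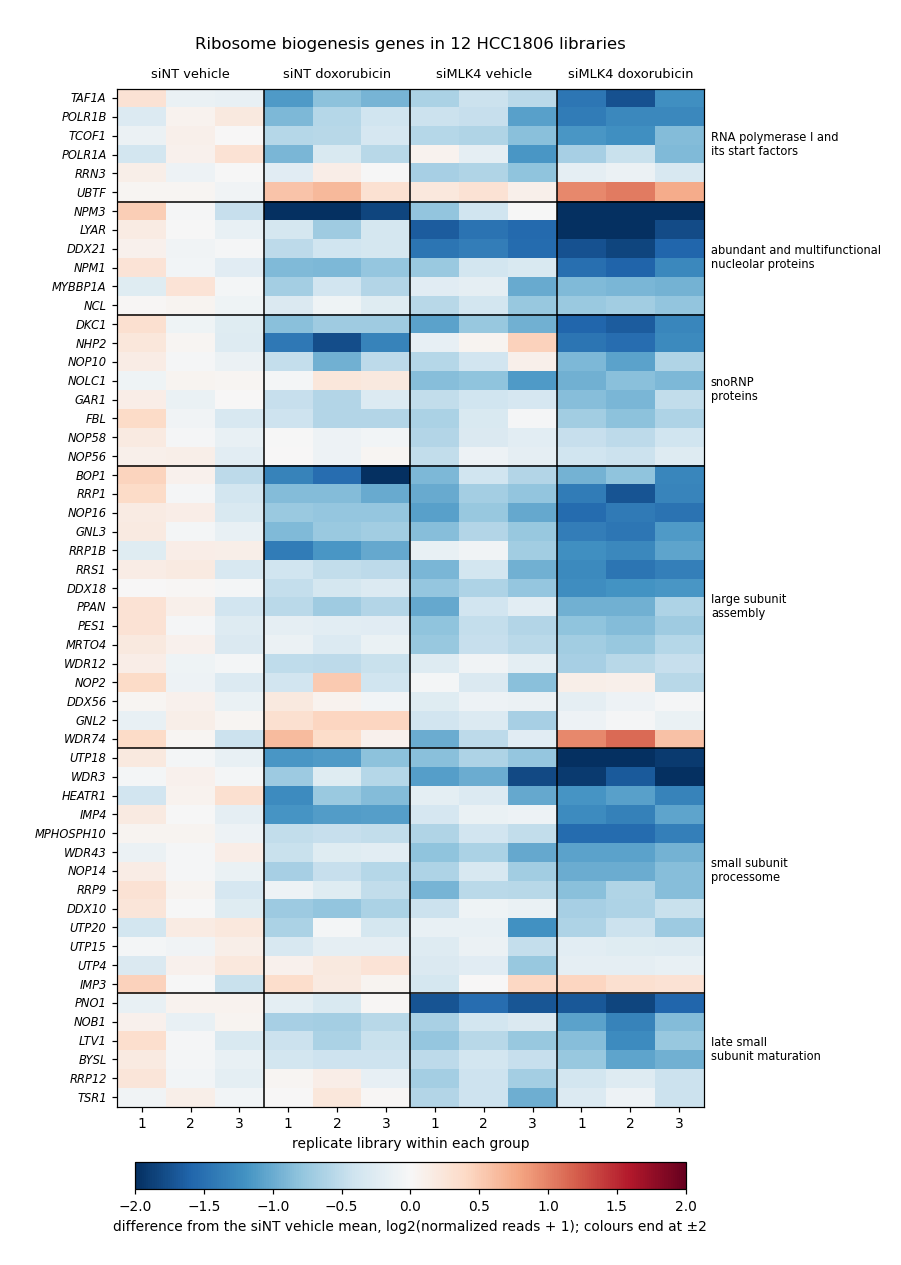
Each row is 1 of the 54 genes, sorted by role, and each column 1 of the 12 libraries. The colour is the difference from the siNT vehicle mean in log2(normalized reads + 1), from blue (lower) to red (higher), with colours ending at ±2. Most genes are blue in the 3 siMLK4 doxorubicin libraries, and UBTF and WDR74 are red there.

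Levels per kilobase of annotated exons spanned a wide range in siNT vehicle. NPM1 was highest with 5120 normalized reads per kb, followed by NCL with 3780 and FBL with 3050, which are multifunctional nucleolar proteins and the methyltransferase of box C/D snoRNPs. POLR1A had 47.8 per kb and PPAN 33.6. NOP2 was lowest with 2.7 per kb. NOP2 shares 49.4% of its 50-base stretches with an overlapping annotated gene (ENSG00000285238) that is not a row of the table, and PPAN shares 44.8% with the readthrough gene PPAN-P2RY11 and with P2RY11, so the levels of both are uncertain. LTV1 (30.3%) and RRN3 (25.3%, with the pseudogene RRN3P2) are uncertain to a lesser degree. NPM1 (8.77%, among others with NPM1P27), RRS1 (8.68%) and WDR74 (8.04%) follow, with a smaller uncertainty.

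With doxorubicin in siNT cells, ribosome biogenesis genes were mostly lower. Of the 54 genes, 45 had a negative log2 fold change and 9 a positive one, with a median of −0.435 against 0.005 over all genes. In all, 10 genes were called lower and none higher, where 10.6% of all genes were called lower and 12.1% higher. With reads scaled by library totals, 6 were called lower and the median was −0.227, against a median of 0.18 over all genes. At an adjusted p under 0.05 alone, 33 of the 54 (61.1%) were lower and 2 higher, against 27.7% and 29.6% of all genes. The siNT doxorubicin libraries lay below all siNT vehicle libraries for 35 of the 54, against 30.4% of all genes. The called share of the 54 was 18.5%.

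The same comparison in siMLK4 cells, with group means from 6 other libraries and a spread taken from all 12, gave a similar picture. Here 42 genes had a negative and 12 a positive log2 fold change, with a median of −0.355 against 0.018 over all genes. With library totals these medians were −0.178 and 0.16, and 2 genes in place of 1 were called higher. A total of 8 genes were called lower and 1 higher, against 10.6% and 12.6% of all genes. At an adjusted p under 0.05, 27 (50%) were lower and 5 higher, against 27.7% and 30.2%, and the groups lay apart downwards for 26 genes, against 30.5% of all genes. Called lower in both siRNA groups were 7 genes, namely IMP4, NHP2, NPM1, NPM3, RRP1B, TAF1A and UTP18, and 27 fell in both at an adjusted p under 0.05. Over all genes, 7.59% were called lower in both and 21.5% fell in both. The sign of the response was shared by 51 of the 54, and by 86.0% of all genes. Across the 54 genes the responses in siNT and siMLK4 cells had a correlation of 0.87, and across all 17013 genes one of 0.89. These are correlations across genes, which are not independent replicates.

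siMLK4 against siNT in vehicle shifted the list in the same direction, against a much smaller background. Of the 54 genes, 51 had a negative log2 fold change, and the median was −0.487 against 0.012 over all genes. In all, 9 were called lower and none higher, where 3.14% of all genes were called lower and 2.51% higher. At an adjusted p under 0.05, 33 (61.1%) were lower and none higher, against 13.0% and 12.7% of all genes, and 33 lay apart downwards, against 18%. Without siMLK4 vehicle replicate 2, 14 genes were called lower and the median was −0.603, and a fit on these 6 libraries alone called 5. This comparison and that of doxorubicin in siNT cells share the 3 siNT vehicle libraries, so their values are set side by side only.

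siMLK4 against siNT with doxorubicin rested on the 6 remaining libraries for its group means and on all 12 for its spread. It had 47 negative log2 fold changes with a median of −0.396 against 0.023 over all genes. Again 9 genes were called lower and none higher, where 2.93% of all genes were called lower and 2.66% higher. At an adjusted p under 0.05, 26 (48.1%) were lower and 1 higher, against 12.1% and 12.7%, and 35 lay apart downwards, against 21.1%. Called lower with siMLK4 in both treatments were DDX21, DKC1, LYAR, NOLC1, PNO1 and WDR3, and 26 genes fell in both at an adjusted p under 0.05, where 1.69% and 7.61% of all genes did so.

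The doxorubicin response of siMLK4 cells minus that of siNT cells was positive for 37 of the 54 genes and negative for 17. Its median was 0.104 against 0.012 over all genes, and 0.041 to 0.143 when single libraries were left out. The test of this difference called none of the 54 genes, against 0.276% of all genes. That share rests on 47 genes, which became 0 to 37 when single libraries were left out (0 without siMLK4 doxorubicin replicate 1) and 228 with the length slope as a covariate, and none of the 54 was called in these fits or when any other single library was left out. None passed an adjusted p of 0.05 either, against 1.2%. At an unadjusted p under 0.05, 3 were higher and 1 lower (BOP1, WDR74, RRN3 and MPHOSPH10), against 14.5% of all genes in either direction. Of the 54 genes, 33 (61.1%) were called in none of the 4 other comparisons, against 66% of all genes.

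**Figure D2:**
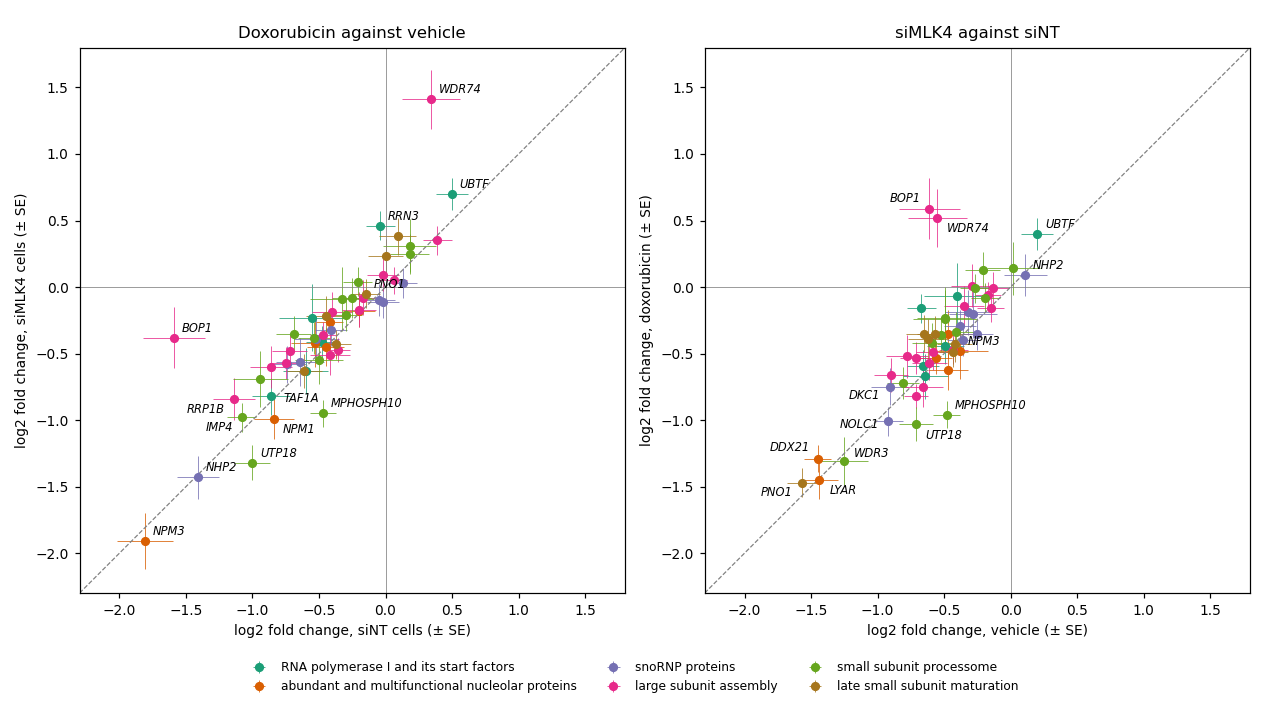
Each point is 1 of the 54 genes, coloured by role, with the log2 fold change ± SE from limma on both axes. The left panel sets doxorubicin against vehicle in siNT cells (x) against siMLK4 cells (y), and the right panel siMLK4 against siNT in vehicle (x) against doxorubicin (y). The group means on the axes of a panel share no library, and the spread behind the SE comes from all 12 libraries. Most points lie below zero on both axes near the dashed line of equal change, and BOP1 and WDR74 lie farthest above it.

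Of the 6 RNA polymerase I genes, 3 fell and 1 rose with doxorubicin in siNT cells at an adjusted p under 0.05, against 27.7% and 29.6% of all genes, and 4 fell with siMLK4 in vehicle, against 13.0%. TAF1A, a subunit of the selectivity factor that recruits the polymerase to the ribosomal DNA promoter (ENSG00000143498, chr1:222557902-222589933), had 820.8, 609.4 and 605.1 normalized reads in siNT vehicle and 307.3, 381.7 and 353.8 in siNT doxorubicin. In siMLK4 cells it went from 433.8, 499.2 and 463.8 to 245.1, 201.0 and 285.8. The doxorubicin groups lay below their vehicle groups without overlap, and so did siMLK4 vehicle below siNT vehicle. The log2 fold change of doxorubicin was −0.86 (SE 0.14, adjusted p = 0.00013) in siNT cells and −0.82 (SE 0.14, adjusted p = 0.0002) in siMLK4 cells. The first call was lost without siNT vehicle replicate 1 and the second without siMLK4 doxorubicin replicate 2, when the values were −0.73 and −0.71.

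POLR1B, a catalytic core subunit (ENSG00000125630, chr2:112541915-112579818), followed with smaller steps. It had 1462, 1850 and 2008 normalized reads in siNT vehicle, 937.6, 1183 and 1338 in siNT doxorubicin, 1301, 1276 and 827.1 in siMLK4 vehicle, and 664.8, 716.3 and 716.7 in siMLK4 doxorubicin. Its 3 siMLK4 doxorubicin libraries were the lowest of all 12. It fell at an adjusted p under 0.05 in each of the 4 comparisons, by 0.60, 0.63, 0.64 and 0.67 on the log2 scale (SE 0.17 each), and was called in none. The siMLK4 values did not pass without siNT vehicle replicate 2 or 3, siMLK4 vehicle replicate 3 (−0.43) or siNT doxorubicin replicate 3, with adjusted p between 0.052 and 0.061. POLR1A, the other catalytic core subunit (ENSG00000068654, chr2:86020216-86106155), had 715.1, 982.1 and 1127 normalized reads in siNT vehicle and 490, 748.2 and 632.7 in siNT doxorubicin. In siMLK4 cells it had 969.9, 815.1 and 410.8 with vehicle and 580.8, 677.9 and 502.6 with doxorubicin. The siMLK4 vehicle libraries of POLR1A spread over more than the whole range of both doxorubicin groups, and its lowest value came from the library with the most negative length slope. No comparison of POLR1A passed an adjusted p of 0.05, the lowest being 0.072 for doxorubicin in siNT cells.

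UBTF, which codes for the upstream binding factor that keeps ribosomal DNA open (ENSG00000108312, chr17:44205033-44221626), went the other way. It had 2151, 2137 and 1986 normalized reads in siNT vehicle and 3104, 3287 and 2569 in siNT doxorubicin. It had 2417, 2565 and 2236 in siMLK4 vehicle and 4057, 4311 and 3512 in siMLK4 doxorubicin. Both doxorubicin groups stood above every vehicle library, and the siMLK4 doxorubicin libraries stood highest. UBTF rose with doxorubicin by 0.50 (SE 0.12, adjusted p = 0.0022) in siNT cells and by 0.70 (SE 0.12, adjusted p = 0.00015) in siMLK4 cells, both under the fold threshold. In siMLK4 cells it was called higher without siMLK4 vehicle replicate 2 or siMLK4 doxorubicin replicate 3, at 0.75 and 0.79.

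RRN3, the factor that ties the polymerase to the promoter (ENSG00000085721, chr16:15060033-15094311), had 2049, 1769 and 1886 normalized reads in siNT vehicle and 1203, 1246 and 1085 in siMLK4 vehicle. With doxorubicin it had 1615, 2073 and 1882 in siNT cells and 1668, 1753 and 1514 in siMLK4 cells. Only the siMLK4 vehicle group stood apart, below all other libraries. RRN3 fell with siMLK4 in vehicle by 0.67 (SE 0.11, adjusted p = 0.00075) and rose with doxorubicin in siMLK4 cells by 0.46 (SE 0.11, adjusted p = 0.0029). Its doxorubicin response in siMLK4 cells minus that in siNT cells was 0.50 (SE 0.16, adjusted p = 0.14), which does not pass. TCOF1, coding for treacle, a nucleolar protein needed for ribosomal DNA transcription, fell with doxorubicin in siNT and siMLK4 cells by 0.48 and 0.41 and with siMLK4 in vehicle and doxorubicin by 0.66 and 0.59 (adjusted p between 0.0013 and 0.011).

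Of the 11 other RNA polymerase I subunits and factors, none was called in any of the 4 comparisons, where 10.6% of all genes were called lower and 12.1% higher with doxorubicin in siNT cells and 3.14% and 2.51% with siMLK4 in vehicle. At an adjusted p under 0.05, doxorubicin in siNT cells gave 3 lower and 2 higher, and siMLK4 in vehicle gave 4 lower and none higher. The shares of all genes were 27.7% lower and 29.6% higher for doxorubicin and 13.0% and 12.7% for siMLK4. These 11 genes had medians of −0.193 and −0.307 against −0.516 and −0.561 for the 6 of the list. With siMLK4 under doxorubicin the medians were −0.275 and −0.303, and no difference between these lists was tested. TAF1C and TTF1 had the highest doxorubicin log2 fold changes in siNT cells (0.63 and 0.56), and POLR1F and POLR1D the lowest (−0.61 and −0.35). Of 11 RNA polymerase III subunits, which make transfer RNA and the small 5S ribosomal RNA, 2 were higher and 3 lower with doxorubicin in siNT cells at an adjusted p under 0.05, against 29.6% and 27.7% of all genes. POLR3F and POLR3C were highest (0.50 and 0.41), and POLR3B and POLR3G were called lower in both siRNA groups, against 7.59% of all genes. POLR3B had log2 fold changes of −1.50 and −1.39 and POLR3G of −1.22 and −0.79. No RNA polymerase III subunit was called with siMLK4, against 3.14% of all genes called lower in vehicle and 2.93% with doxorubicin. At an adjusted p under 0.05, siMLK4 gave 3 of 11 lower in vehicle and 1 with doxorubicin, against 13.0% and 12.1% of all genes, and none higher.

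Among the 6 abundant and multifunctional nucleolar proteins, 5 fell with doxorubicin in siNT cells and 4 with siMLK4 in vehicle at an adjusted p under 0.05, against 27.7% and 13.0% of all genes. Called lower were 2 in each, against 10.6% and 3.14%. NPM3, a small nucleolar partner of nucleophosmin (ENSG00000107833, chr10:101781325-101783446), had 1838, 1280 and 950.9 normalized reads in siNT vehicle and 325.8, 318.6 and 366 in siNT doxorubicin. It had 754.4, 997.4 and 1299 in siMLK4 vehicle and 216.2, 204.3 and 265.8 in siMLK4 doxorubicin. The vehicle libraries were spread widely and still lay far above all doxorubicin libraries. NPM3 kept 24.8% of its vehicle level in siNT cells and 22.5% in siMLK4 cells, at log2 fold changes of −1.81 (SE 0.21, adjusted p = 6.8e-06) and −1.91 (SE 0.21, adjusted p = 4.4e-06). These were the lowest of the 54 in both comparisons, and the siMLK4 comparisons of NPM3 did not pass (adjusted p = 0.2 in vehicle and 0.11 with doxorubicin).

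NPM1, nucleophosmin, a chaperone of nucleolar particles (ENSG00000181163, chr5:171387116-171411810), had 51044, 40716 and 35841 normalized reads in siNT vehicle and 22926, 22606 and 24738 in siNT doxorubicin. It had 25171, 32456 and 34019 in siMLK4 vehicle and 14737, 13863 and 17308 in siMLK4 doxorubicin. The siMLK4 doxorubicin libraries lay below all others. With doxorubicin the log2 fold change of NPM1 was −0.84 (SE 0.15, adjusted p = 0.00034) in siNT cells and −0.99 (SE 0.15, adjusted p = 9.2e-05) in siMLK4 cells. The first was −0.71 and not called without siNT vehicle replicate 1. NCL, nucleolin, differed. It had 34345, 34862 and 31862 normalized reads in siNT vehicle, 27617, 31567 and 28555 in siNT doxorubicin, 23039, 26122 and 19867 in siMLK4 vehicle, and 20042, 20876 and 19529 in siMLK4 doxorubicin. The siMLK4 libraries lay below every siNT library. NCL fell with siMLK4 by 0.56 in vehicle (SE 0.12, adjusted p = 0.004) and by 0.53 with doxorubicin (SE 0.12, adjusted p = 0.0053). Its doxorubicin log2 fold changes of −0.20 and −0.18 did not pass.

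DDX21, an RNA helicase that binds ribosomal DNA chromatin and precursor RNA (ENSG00000165732, chr10:68956135-68985068), had 17015, 15198 and 15767 normalized reads in siNT vehicle and 5781, 6127 and 5515 in siMLK4 vehicle. With doxorubicin it had 11169, 12159 and 12503 in siNT cells and 4779, 4483 and 5302 in siMLK4 cells. All 4 groups were apart from each other, with a far wider gap between the siRNAs than between the treatments. siMLK4 left 36.3% of the siNT level in vehicle and 40.6% with doxorubicin, at log2 fold changes of −1.45 (SE 0.10, adjusted p = 7.3e-07) and −1.29 (SE 0.10, adjusted p = 2.6e-06). LYAR, a nucleolar zinc finger protein (ENSG00000145220, chr4:4267701-4290154), had 1205, 1077 and 968.8 normalized reads in siNT vehicle, 847.2, 655.6 and 842.5 in siNT doxorubicin, 340.7, 387.6 and 366.5 in siMLK4 vehicle, and 245.1, 209.3 and 313 in siMLK4 doxorubicin. Its siMLK4 log2 fold changes were −1.44 (SE 0.14, adjusted p = 8e-06) and −1.45 (SE 0.14, adjusted p = 1e-05).

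**Figure D3:**
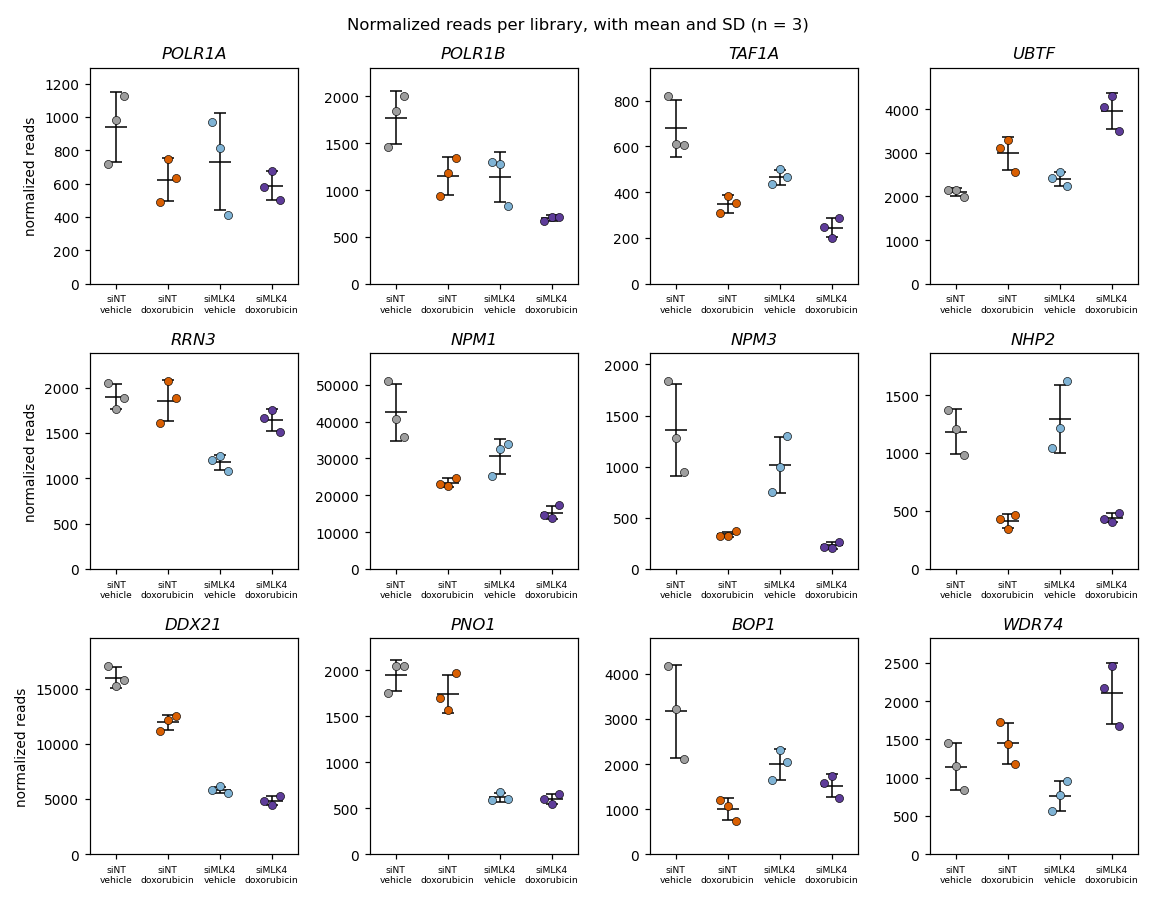
Normalized reads (y, from 0) of 12 of the genes in the 4 groups (x), 1 point per library, with the mean and SD of 3 libraries. NPM3 and NHP2 drop with doxorubicin under both siRNAs, DDX21 and PNO1 drop with siMLK4 under both treatments, and UBTF rises with doxorubicin.

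Of the 8 snoRNP proteins, 5 fell with doxorubicin in siNT cells and 4 in siMLK4 cells at an adjusted p under 0.05, against 27.7% of all genes in each. The 4 that fell in both, against 21.5% of all genes, were the proteins of the box H/ACA particle. With siMLK4, 4 fell in vehicle and 3 with doxorubicin, against 13.0% and 12.1%. In the box H/ACA particle, which makes pseudouridine, NHP2 (ENSG00000145912, chr5:178149463-178153894) had 1372, 1203 and 978.9 normalized reads in siNT vehicle and 433.7, 344.1 and 462.3 in siNT doxorubicin. It had 1043, 1217 and 1621 in siMLK4 vehicle and 426.5, 408.6 and 483.6 in siMLK4 doxorubicin. NHP2 kept 34.9% and 34.0% of its vehicle level, at log2 fold changes of −1.41 (SE 0.16, adjusted p = 6.9e-06) and −1.43 (SE 0.16, adjusted p = 5.9e-06), and it did not differ detectably between the siRNAs (0.11 in vehicle, 95% interval −0.21 to 0.43). Its partner DKC1, the pseudouridine synthase (ENSG00000130826, chrX:154762742-154777689), had 5835, 4442 and 3983 normalized reads in siNT vehicle, 2614, 2875 and 2874 in siNT doxorubicin, 2240, 2772 and 2414 in siMLK4 vehicle, and 1561, 1472 and 1899 in siMLK4 doxorubicin. Every other group lay below siNT vehicle.

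DKC1 was called lower with siMLK4 at −0.91 in vehicle (SE 0.14, adjusted p = 0.00041) and −0.75 with doxorubicin (SE 0.14, adjusted p = 0.0017). The first call was lost in a fit of these 2 groups alone. The second sat at the fold threshold and was lost under TMM scaling, under library totals, with the length slope as a covariate and when single doxorubicin libraries were left out (siNT replicates 2 and 3, siMLK4 replicates 1 and 2, each on its own, with −0.68 the value closest to 0 among these). With doxorubicin DKC1 fell by 0.74 in siNT cells and 0.58 in siMLK4 cells, short of a call. GAR1 and NOP10, the remaining H/ACA proteins, fell with doxorubicin in siNT cells by 0.41 and 0.64 and in siMLK4 cells by 0.32 and 0.56. For NOP10 the latter was −0.37 (adjusted p = 0.066) without siMLK4 vehicle replicate 3.

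In the box C/D particle, which methylates ribosomal RNA, FBL had 8354, 6088 and 5092 normalized reads in siNT vehicle, 4809, 4258 and 4234 in siNT doxorubicin, 4090, 5172 and 6279 in siMLK4 vehicle, and 3919, 3620 and 4135 in siMLK4 doxorubicin. The vehicle groups were wide and overlapped each other. FBL fell with doxorubicin in siNT cells by 0.52 (SE 0.17, adjusted p = 0.019), and its other comparisons did not pass. Without siNT vehicle replicate 1 this value was −0.33 (adjusted p = 0.092). NOP56 and NOP58, which form the core of the same particle, had doxorubicin log2 fold changes of −0.02 and −0.05 in siNT cells and −0.11 and −0.10 in siMLK4 cells, and NOP58 fell with siMLK4 by 0.36 in vehicle and 0.40 with doxorubicin. NOLC1, a chaperone of snoRNPs in the nucleolus and in Cajal bodies (ENSG00000166197, chr10:102152176-102163871), had 5831, 6400 and 6319 normalized reads in siNT vehicle, 6038, 7197 and 7077 in siNT doxorubicin, 3407, 3552 and 2817 in siMLK4 vehicle, and 3167, 3472 and 3311 in siMLK4 doxorubicin. Its doxorubicin log2 fold changes of 0.13 and 0.03 did not pass, while siMLK4 gave −0.92 (SE 0.11, adjusted p = 5.6e-05) and −1.01 (SE 0.11, adjusted p = 3.2e-05).

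Of the 54 genes, 8 carry small nucleolar RNAs in their introns in the GENCODE annotation, namely NCL, NOP56, NOP58, DKC1, WDR43, TSR1, GNL3 and PPAN. None of the 8 was called with doxorubicin in siNT cells and 4 were lower at an adjusted p under 0.05, against 10.6% called lower and 27.7% lower among all genes. With siMLK4 in vehicle, 2 were called lower and 6 were lower at an adjusted p under 0.05, against 3.14% and 13.0%. The small nucleolar RNAs themselves are not polyadenylated and were not analysed here.

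Of the 15 large subunit assembly factors, 9 fell with doxorubicin in siNT cells at an adjusted p under 0.05 and 8 with siMLK4 in vehicle, against 27.7% and 13.0% of all genes. BOP1, WDR12 and PES1 form a stable complex that is needed for maturation of the large subunit RNA. BOP1 (ENSG00000261236) had 4169, 3225 and 2111 normalized reads in siNT vehicle and 1203, 1057 and 741.1 in siNT doxorubicin. In siMLK4 cells it had 1636, 2321 and 2039 with vehicle and 1576, 1739 and 1237 with doxorubicin. BOP1 stood lowest in siNT doxorubicin, whereas the siMLK4 groups overlapped each other. Its log2 fold change with doxorubicin was −1.59 (SE 0.23, adjusted p = 4.5e-05) in siNT cells and −0.38 (SE 0.23, adjusted p = 0.16) in siMLK4 cells. The difference of 1.20 (SE 0.32, adjusted p = 0.083) was the highest of the 54 and did not pass. PES1 had −0.20 and −0.17 in the same comparisons and WDR12 −0.47 and −0.36.

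WDR74, a nucleolar factor of large subunit assembly (ENSG00000133316, chr11:62832342-62841809), was the single gene of the list called higher. It had 1455, 1147 and 831.9 normalized reads in siNT vehicle, 1723, 1441 and 1179 in siNT doxorubicin, 558.1, 773.2 and 956.8 in siMLK4 vehicle, and 2169, 2456 and 1678 in siMLK4 doxorubicin. In siMLK4 cells the groups were apart and the doxorubicin mean was 275% of the vehicle mean, at a log2 fold change of 1.41 (SE 0.22, adjusted p = 8e-05). In siNT cells it was 0.34 (SE 0.22, adjusted p = 0.19), and the difference between the responses was 1.07 (SE 0.31, adjusted p = 0.11). WDR74 shares 8.04% of its 50-base stretches with other genes, among them the small nuclear RNA gene RNU2-2P and TEX54, which overlap it, so its reads are uncertain.

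RRP1B, a nucleolar protein (ENSG00000160208, chr21:43659560-43696079), had 1374, 1796 and 1761 normalized reads in siNT vehicle and 616.5, 726.8 and 803 in siNT doxorubicin. Its log2 fold change with doxorubicin was −1.14 (SE 0.16, adjusted p = 3.8e-05) in siNT cells and −0.84 (SE 0.16, adjusted p = 0.00047) in siMLK4 cells, the latter −0.73 and not called without siMLK4 vehicle replicate 2. This call of RRP1B in siMLK4 cells was also lost under library totals. Its paralogue RRP1 had 1561, 1181 and 925 normalized reads in siNT vehicle, 656.1, 653.5 and 594.1 in siNT doxorubicin, and 592.1, 748.3 and 687.6 in siMLK4 vehicle. Both groups lay below siNT vehicle, at log2 fold changes of −0.86 (SE 0.16, adjusted p = 0.00041) and −0.78 (SE 0.16, adjusted p = 0.0029). Leaving out siNT vehicle replicate 1 ended both calls, and the second was also lost without siNT vehicle replicate 2 or siMLK4 vehicle replicate 1. Library totals ended both calls of RRP1 as well, and a fit of the groups compared alone ended the second.

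GNL2, a nucleolar GTPase that acts in export of the large subunit, had 1828, 2194 and 2089 normalized reads in siNT vehicle, 2527, 2740 and 2747 in siNT doxorubicin, 1553, 1688 and 1276 in siMLK4 vehicle, and 1900, 1999 and 1854 in siMLK4 doxorubicin. Among the 54 it was the one gene that rose with doxorubicin in both siRNA groups (0.39 and 0.35, adjusted p = 0.0099 and 0.018) and fell with siMLK4 in both treatments (−0.43 and −0.47, adjusted p = 0.013 and 0.0084). GNL3, nucleostemin, fell in all 4 comparisons, with log2 fold changes from −0.75 to −0.53. NOP16 was called lower with siMLK4 in vehicle at −0.90 (SE 0.13, adjusted p = 0.00017), and the helicase DDX18 with siMLK4 and doxorubicin at −0.82 (SE 0.09, adjusted p = 4.1e-05). The NOP16 call was lost in a fit of these 2 groups alone and the DDX18 call under library totals. DDX56, another helicase, had log2 fold changes between −0.16 and 0.06.

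The small subunit processome is the particle that forms on the precursor RNA while it is still being made. Of its 13 genes in the list, 8 fell with doxorubicin in siNT cells and 7 with siMLK4 in vehicle, and none rose. The shares of all genes lower at an adjusted p under 0.05 were 27.7% and 13.0%. Doxorubicin called 3 of the 13 lower in each siRNA group, against 10.6% of all genes. siMLK4 called 2 lower in vehicle and 3 with doxorubicin, against 3.14% and 2.93%. UTP18 (ENSG00000011260, chr17:51260546-51297936) had 1966, 1666 and 1546 normalized reads in siNT vehicle, 764.1, 778.7 and 976.4 in siNT doxorubicin, 965.9, 1117 and 1001 in siMLK4 vehicle, and 362.9, 335.2 and 454.5 in siMLK4 doxorubicin. The siNT doxorubicin and siMLK4 vehicle groups lay below siNT vehicle, and siMLK4 doxorubicin lay below every other group. Doxorubicin gave log2 fold changes of −1.0 (SE 0.13, adjusted p = 2.6e-05) in siNT and −1.32 (SE 0.13, adjusted p = 2.4e-06) in siMLK4 cells. siMLK4 gave −0.71 (SE 0.13, adjusted p = 0.0015) in vehicle and −1.03 (SE 0.13, adjusted p = 0.00011) with doxorubicin. The difference of −0.32 between the doxorubicin responses did not pass (adjusted p = 0.49).

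IMP3, IMP4 and MPHOSPH10 bind each other and join the processome together. IMP4 (ENSG00000136718, chr2:130342877-130347967) had 1703, 1493 and 1326 normalized reads in siNT vehicle and 658.9, 688.1 and 694.5 in siNT doxorubicin, and in siMLK4 cells 1192, 1361 and 1392 with vehicle and 623.2, 586.2 and 718.5 with doxorubicin. It kept 45.2% and 48.9% of its vehicle level, at log2 fold changes of −1.08 (SE 0.11, adjusted p = 3.3e-06) and −0.98 (SE 0.11, adjusted p = 7.9e-06), and its siMLK4 values of −0.19 and −0.08 did not pass. IMP3 had 1187, 858.6 and 637.6 normalized reads in siNT vehicle, 1109, 981.3 and 898.3 in siNT doxorubicin, 680.3, 872.8 and 1150 in siMLK4 vehicle, and 1172, 1077 and 1060 in siMLK4 doxorubicin. Its vehicle libraries were widely spread, each doxorubicin group overlapped its vehicle group, and no comparison of IMP3 passed.

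MPHOSPH10 had 2418, 2407 and 2170 normalized reads in siNT vehicle, 1664, 1683 and 1659 in siNT doxorubicin, 1528, 1778 and 1664 in siMLK4 vehicle, and 797.9, 797.2 and 905.4 in siMLK4 doxorubicin. Doxorubicin alone left 71.6% and siMLK4 alone 71.0% of the siNT vehicle level, and siMLK4 doxorubicin had 50.3% of the siMLK4 vehicle level. It was called lower with doxorubicin in siMLK4 cells at −0.95 (SE 0.10, adjusted p = 2.7e-06) and with siMLK4 under doxorubicin at −0.96 (SE 0.10, adjusted p = 1.5e-05). The difference between its doxorubicin responses, −0.48 (SE 0.14, adjusted p = 0.11), was the lowest of the 54 and did not pass.

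WDR3, a partner of UTP18 in the processome (ENSG00000065183, chr1:117929720-117966543), had 2371, 2564 and 2351 normalized reads in siNT vehicle, 1463, 2048 and 1634 in siNT doxorubicin, 1133, 1216 and 695.2 in siMLK4 vehicle, and 644.4, 757.1 and 576.1 in siMLK4 doxorubicin. Every siMLK4 library lay below every siNT library. Its siMLK4 log2 fold changes were −1.25 (SE 0.18, adjusted p = 0.00021) in vehicle and −1.31 (SE 0.18, adjusted p = 0.00017) with doxorubicin. HEATR1, one of the processome proteins linked to ribosomal DNA transcription, had 3303, 4485 and 5338 normalized reads in siNT vehicle and 1792, 2552 and 2341 in siNT doxorubicin. It was called lower at −0.94 (SE 0.21, adjusted p = 0.0017), though not without siNT doxorubicin replicate 1 or under library totals. WDR43, of the same subcomplex, was called lower with siMLK4 in vehicle at −0.81 (SE 0.12, adjusted p = 0.00026). This call was lost without siNT vehicle replicate 3 or siMLK4 vehicle replicate 3, under library totals, and in a fit of the groups compared alone. UTP4 and UTP15, which belong to this subcomplex as well, were not called in any comparison.

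Of the 6 late small subunit factors, at least 2 fell in each comparison. With siMLK4, 6 of the 6 were lower in vehicle and 3 with doxorubicin at an adjusted p under 0.05, against 13.0% and 12.1% of all genes, and 3 were lower with doxorubicin in siNT cells and 2 in siMLK4 cells, against 27.7% in both. PNO1 was called lower with siMLK4 in both treatments, as were 1.69% of all genes. None of the 6 was called with doxorubicin, where 10.6% of all genes were called lower in each siRNA group. PNO1, which holds the immature end of the small subunit RNA (ENSG00000115946, chr2:68157888-68176238), had 1747, 2041 and 2041 normalized reads in siNT vehicle and 587.1, 675.6 and 593.5 in siMLK4 vehicle. With doxorubicin it had 1691, 1569 and 1970 in siNT cells and 596.1, 543.7 and 647.8 in siMLK4 cells. The siNT and siMLK4 libraries were far apart, while the doxorubicin and vehicle libraries of each siRNA overlapped. siMLK4 left 31.8% and 34.2% of the siNT level, at log2 fold changes of −1.57 (SE 0.11, adjusted p = 7.6e-07) and −1.47 (SE 0.11, adjusted p = 2e-06), the lowest of the 54 in both treatments. NOB1, the nuclease that works beside PNO1, fell by 0.42 with siMLK4 in vehicle and by 0.61 with doxorubicin in siNT cells. TSR1, LTV1, RRP12 and BYSL fell with siMLK4 in vehicle by 0.65, 0.62, 0.57 and 0.43.

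Factors outside the list were compared to see whether its members stood alone. With siMLK4 in vehicle, 18 of 37 other small subunit factors and 25 of 44 other large subunit factors were lower at an adjusted p under 0.05 and none was higher, against 13.0% and 12.7% of all genes, with medians of −0.315 and −0.389. Called lower were 3 small subunit factors (RIOK1, NAT10 and EMG1) and 6 large subunit factors, against 3.14% of all genes, NOC3L being lowest at −1.54 (from 2585, 2629 and 2627 normalized reads to 940.8, 880.8 and 783.8). With doxorubicin in siNT cells the small subunit factors had 13 lower and 6 higher and the large subunit factors 16 lower and 6 higher at the same rule, against 27.7% and 29.6% of all genes, with medians of −0.237 and −0.25. Of the former, UTP3 and KRR1 were highest (1.03 and 0.60) and TSR3 and NAT10 lowest (−1.09 and −1.03). Of the latter, DDX24 and ZNF622 were highest (0.86 and 0.59) and NLE1 and PAK1IP1 lowest (−1.62 and −1.25). The RNA exosome and RNase MRP, which trim and cut the precursor, had 5 of 23 (21.7%) lower with siMLK4 in vehicle, against 13.0% of all genes. With doxorubicin in siNT cells 8 (34.8%) were lower and 3 higher, against 27.7% and 29.6%, with DIS3 and RPP25 highest (0.87 and 0.70) and EXOSC8 and EXOSC5 lowest (−1.28 and −0.75).

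**Figure D4:**
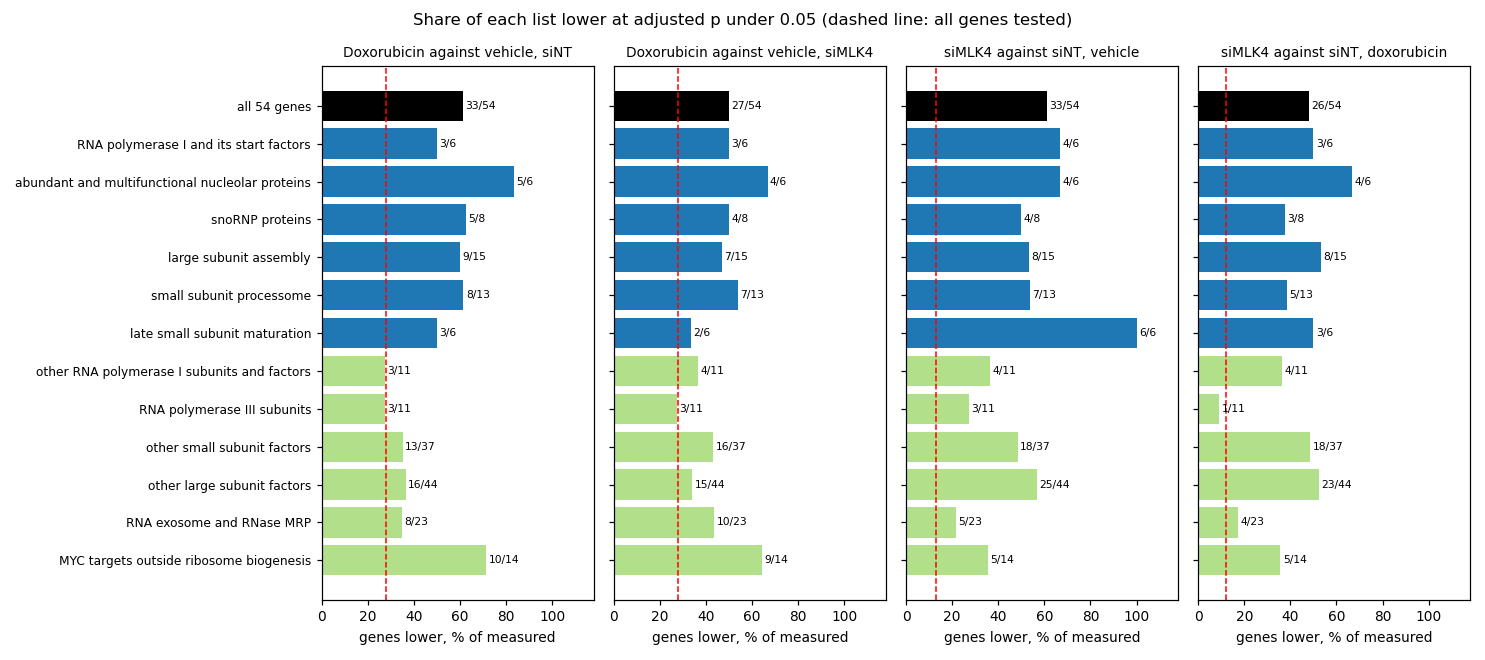
Bars give the percentage of measured genes that were lower at an adjusted p under 0.05 in limma, with counts beside them, for the 54 genes (black), their roles (blue) and other lists (green). The 4 panels are the 4 comparisons and the dashed line is the share of all 17013 genes. The black bar is at 61.1, 50, 61.1 and 48.1%, above the line in every panel.

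MYC was read in every library because ribosome biogenesis genes are among its known targets. It had 4380, 3354 and 4191 normalized reads in siNT vehicle and 1446, 1723 and 1815 in siMLK4 vehicle. With doxorubicin it had 3257, 3271 and 3758 in siNT cells and 1061, 1018 and 1408 in siMLK4 cells. siMLK4 left 41.8% of the siNT level in vehicle and 33.9% with doxorubicin, at log2 fold changes of −1.23 (SE 0.14, adjusted p = 3.5e-05) and −1.53 (SE 0.14, adjusted p = 7.7e-06). With doxorubicin MYC had −0.20 (SE 0.14, adjusted p = 0.23) in siNT cells, which does not pass, and fell by 0.50 (SE 0.14, adjusted p = 0.0075) in siMLK4 cells. The part of MYC in the values of the 54 genes was not tested.

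Of the 12 genes of the MYC network 11 were measured. In siNT cells doxorubicin called 1 of the 11, MYCL, higher and none lower, against 12.1% and 10.6% of all genes. MYCL and MXD4 had the highest log2 fold changes (0.80 and 0.49), MLX and MYC the lowest (−0.30 and −0.20). With siMLK4 in vehicle MYC and MXD1 were called lower, against 3.14% of all genes. MLXIP fell (−0.34) and MYCL (0.49), MXD3 (0.73) and MXD4 (0.58) rose at an adjusted p under 0.05. With siMLK4 under doxorubicin MYC and MXD1 (−0.77) were called lower, against 2.93% of all genes, and MXD3 higher (1.02), against 2.66%. MYCL (0.44) and MXD4 (0.74) rose there as well. Of 14 measured MYC targets outside ribosome biogenesis, none was called with siMLK4 in vehicle and 5 were lower at an adjusted p under 0.05, against 3.14% called and 13.0% lower among all genes. Doxorubicin called 6 of the 14 lower in siNT cells and 4 in siMLK4 cells, against 10.6% in each. At an adjusted p under 0.05, 10 (71.4%) were lower and 1 higher in siNT cells, against 27.7% and 29.6%. In siMLK4 cells 9 (64.3%) were lower and 1 higher, against 27.7% and 30.2%. The medians were −0.659 and −0.498, against −0.435 and −0.355 for the 54 genes. Among the 14 targets in siNT cells ODC1 and NAMPT were highest (0.45 and 0.25) and TERT and HSPD1 lowest (−1.79 and −1.32).

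The letters CACGTG, a palindromic E-box to which MYC with MAX can bind, were searched in RefSeq promoters (250 bases before to 50 after the start, GRCh38.p14). Promoters of 45 of the 54 genes were matched by symbol, and 21 of them (46.7%) held CACGTG, against 12.1% of the promoters of 12030 genes in the table and 8.8% of all 27305. With siMLK4 in vehicle, 15 of these 21 genes and 11 of the 24 without the letters were lower at an adjusted p under 0.05, against 13.0% of all genes. With doxorubicin in siNT cells the counts were 13 of 21 and 14 of 24, against 27.7%. They were 11 of 21 and 9 of 24 for siMLK4 under doxorubicin, against 12.1%. For doxorubicin in siMLK4 cells they were 9 of 21 and 13 of 24, against 27.7%. Called lower with siMLK4 were 4 of 21 and 4 of 24 in vehicle and 4 and 2 with doxorubicin, against 3.14% and 2.93%. No difference between genes with and without the letters was tested. The matches of the genes called lower with siMLK4 in either treatment are shown with the 12 bases on each side, on the strand of the gene, and capitals mark CACGTG. They lie at chr2:68157885-68157914 (PNO1, + strand), chr10:68956604-68956633 (DDX21, + strand), chr4:4290068-4290097 (LYAR, − strand), chr2:28894658-28894687 (WDR43, + strand), and chr17:51260445-51260474 and chr17:51260538-51260567 (UTP18, + strand).
PNO1: ggtgcagctgcgCACGTGtttcagccggca
DDX21: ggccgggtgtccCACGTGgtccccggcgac
LYAR: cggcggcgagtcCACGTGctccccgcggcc
WDR43: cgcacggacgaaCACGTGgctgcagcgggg
UTP18, first match: gggagtgctggtCACGTGgcaagaggctgc
UTP18, second match: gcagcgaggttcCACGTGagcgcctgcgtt

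A match of letters is a description and not a site of binding. DKC1, WDR3, NOP16 and RRP1 were called lower with siMLK4 as well and have no CACGTG in this window, and NOLC1, DDX18 and MPHOSPH10 had no promoter entry.

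The siRNA seed words printed above were set beside the same calls. Of the 9 genes called lower with siMLK4 in vehicle, 7 (77.8%) carried at least 1 seed word in an annotated 3′UTR, against 67.9% of all 505 genes with a 3′UTR that were called lower and 58.2% of all genes. Of the 9 called lower with siMLK4 under doxorubicin it was again 7, against 69.1% of 440. PNO1 and WDR3 hold the word of siRNA 3, and DDX21 holds those of siRNAs 2, 3 and 4. LYAR and DKC1 hold none. Direct effects of the siRNA seeds on these genes were not tested, and no library with a single siRNA or a rescue was analysed here.

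Genes of the 5S particle and of nucleolar stress were read beside the list, because free RPL5 and RPL11 are known to hold back MDM2 when ribosome assembly fails. RPL5 had 25543, 18970 and 19766 normalized reads in siNT vehicle and 9657, 8169 and 11088 in siNT doxorubicin, and was called lower at −1.15. RPL11 had a log2 fold change of −0.61 and MDM2 of −0.40. HEXIM1 and CDKN1A, the latter a cell cycle inhibitor, were highest with doxorubicin in siNT cells, at 1.75 and 1.06 (both called), while MDM4 was lowest at −1.59. Of the 8 measured genes, doxorubicin called 2 higher and 2 lower in siNT cells, against 12.1% and 10.6% of all genes. In siMLK4 cells it called 2 higher and 4 lower, against 12.6% and 10.6%. With siMLK4 in vehicle HEXIM1 was called higher (0.81) and CDKN1A lower (−0.84), against 2.51% and 3.14% of all genes. No other of the 8 was called there. The messages of RPL5 and RPL11 say nothing of the free proteins, which were not measured.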

How the data were processed

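The deposited table of 12 libraries holds log2 values after a variance-stabilizing transformation by the authors of size-factor normalized reads. No source states this transformation, and it was inferred from the numbers themselves. Per the labels and the study's methods, the authors trimmed paired reads with Trimmomatic 0.39, aligned them with HISAT2, counted them per gene by strand with HTSeq 0.6.0 and used DESeq2 1.26.0. The labels name hg19 and the methods GRCh38, and coordinates here come from GENCODE 44 and RefSeq on GRCh38. Inverting the transformation gave whole reads (within 0.05) for 100% of values, 16759025 to 19302248 per library.

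Members and lists were chosen with earlier results of these data known. All 54 members may be named; values per library are given for the landmark genes POLR1A, POLR1B, UBTF, RRN3, TAF1A, NCL, NPM1, FBL and DKC1, for the 3 highest and 3 lowest members of each comparison, and for MAP3K21 and MYC. Of each other list the 2 highest and 2 lowest genes of the doxorubicin response in siNT cells are named (the markers of other cell types have 4 genes in the table). Per-library values of RRP1, RRP1B, HEATR1, IMP4 and NOLC1, and NOC3L, RPL5 and other single genes, were chosen after their values were seen.

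limma 3.58.1 in R 4.3.3 (lmFit, eBayes with a variance trend) was fitted to all 12 libraries with 4 group means, with Benjamini-Hochberg adjustment over 17013 genes. A log2 fold change on this scale understates changes of low genes. The code was tested on simulated data. Shared sequence was measured as the percentage of transcript windows of 50 bases that also occur in other genes. Alternatives were other scalings, filters, transformations and thresholds, limma-voom on recovered reads, the groups compared alone, a replicate block and leaving out each library. Length slope as a covariate was added after seeing the data.

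Equally numbered libraries deviated together, with correlations over 0.1 in all 3 pairs, for doxorubicin in siNT cells (0.460, 0.105 and 0.205) and for siMLK4 with doxorubicin (0.190, 0.516 and 0.559). They did not for doxorubicin in siMLK4 cells (lowest −0.077) or siMLK4 in vehicle (lowest −0.723). No label states such a pairing.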

Additional observations from a re-analysis of the deposited data

How the results depend on the processing

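Under library totals the median of all genes moved to 0.18 (doxorubicin in siNT cells), 0.16 (doxorubicin in siMLK4 cells), 0.107 (siMLK4 in vehicle) and 0.086 (siMLK4 with doxorubicin), and relative to it the 54 genes stayed at −0.407, −0.338, −0.458 and −0.403. Their own medians were then −0.227, −0.178, −0.351 and −0.317, 6 genes were called lower with doxorubicin in siNT cells, 2 were called higher in siMLK4 cells, and calls near the fold threshold were lost, among them those of TAF1A (both siRNA groups) and NPM1 (siNT). Values near 0 changed sign there, namely RRN3 (0.20) and NCL (0.04) with doxorubicin in siNT cells, NCL in siMLK4 cells (0.00), POLR1A with siMLK4 under doxorubicin (0.01), and TAF1A (−0.02) and NCL (−0.03) in the difference between the responses; the cause was not tested. At an adjusted p under 0.05 the counts are those of the report (2 higher and 33 lower, 5 and 27, 0 and 33, 1 and 26). With a further fold threshold of 0.5 they were 21 lower for doxorubicin in siNT cells, 2 higher and 17 lower in siMLK4 cells, 24 lower for siMLK4 in vehicle and 19 with doxorubicin, where 19.3% of all genes were lower, 21.7% higher and 19% lower, 7.89% lower and 7.31% lower. With only the groups compared, 5 were lower with siMLK4 in vehicle, and the cause of this drop was not tested. TMM scaling, the read filter, other pseudocounts, limma-voom, the fit without a trend and the length slope kept every count of the 54 within 1.5 times. Counts over all genes moved more. The 961 genes called with siMLK4 in vehicle became 1613 and 1595 with pseudocounts of 1 and 0.5, 1483 with limma-voom and 611 with only the groups compared. The 950 called with siMLK4 under doxorubicin became 1466 with limma-voom. The 47 called in the difference between the responses became 31 with a pseudocount of 0.5, 29 with limma-voom, 228 with the length slope and 0 to 37 without single libraries.

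The replicate block gave the same counts as the fit without it (10 lower; 1 higher and 8 lower; 9 lower; 9 lower; none for the difference) and changed no call of the 54.

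Leaving out each library gave 7 to 14 lower for doxorubicin in siNT cells, 1 to 2 higher (2 without siMLK4 vehicle replicate 2 or siMLK4 doxorubicin replicate 3) and 7 to 11 lower in siMLK4 cells, 8 to 14 lower for siMLK4 in vehicle (median −0.603 to −0.463, with 14 and −0.603 without siMLK4 vehicle replicate 2) and 8 to 11 with doxorubicin. Signs changed within the ranges of RRN3 (−0.12 to 0.06) for doxorubicin in siNT cells, POLR1A (−0.57 to 0.00) in siMLK4 cells, NHP2 (−0.06 to 0.25) and IMP3 (−0.19 to 0.24) for siMLK4 in vehicle, and POLR1A (−0.22 to 0.06) with doxorubicin. In the difference between the responses they changed for POLR1A (−0.02 to 0.56), POLR1B (−0.24 to 0.10), TAF1A (−0.09 to 0.15), NCL (−0.08 to 0.12) and FBL (−0.06 to 0.29). None of these had passed. Of the calls, 6 of 10, 7 of 9, 7 of 9 and 8 of 9 were kept whichever library was left out. With the other scalings, filters, transformations and fits counted as well, 6 of 10, 7 of 9, 5 of 9 and 7 of 9 were kept in every setting.

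With 3 libraries a group, the standard errors and p-values of the main fit rest on a spread shared over all 4 groups. This holds for small and large changes alike, and the standard errors measure the spread between these libraries.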
